A study of Mus musculus with 12 samples.

Results

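The genes described here are 10 that carry glucose into heart muscle cells and run the steps of glycolysis at which the heart can choose between isoenzymes: the transporters Slc2a1 and Slc2a4, the hexokinases Hk1 and Hk2, the phosphofructokinases Pfkm and Pfkp, the pyruvate kinase Pkm, the lactate dehydrogenases Ldha and Ldhb, and the muscle fructose bisphosphatase Fbp2. They were taken by name from the array table, with the brightest probe set (a group of probes read out as 1 value) that is annotated to a single gene symbol. All 10 of the 10 were found, each on 1 probe set, among 26989 genes tested. Mouse hearts were compared 2 weeks after TAC, the usual short name of transverse aortic constriction, an operation that narrows the aorta and loads the left ventricle with pressure, or after a sham operation. The mice were wild type or lacked Adam12, a membrane metalloprotease, and both genotypes were C57BL/6J males of 10 weeks. The 4 groups are wild type (WT) sham, WT TAC, Adam12 knockout (KO) sham and KO TAC, with 3 biological replicates each. The knockout allele, the part of the heart taken and any pooling of hearts are not given in the sources used here.

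Cells take up glucose through GLUT proteins: GLUT1, from Slc2a1, sits at the surface at rest, and GLUT4, from Slc2a4, moves there on insulin or contraction and is the main GLUT of adult heart and skeletal muscle. Hexokinase traps glucose as glucose 6-phosphate, phosphofructokinase commits it to glycolysis, pyruvate kinase makes pyruvate, and lactate dehydrogenase interconverts pyruvate and lactate. Each step has a form that prevails in adult striated muscle (Hk2, Pfkm, Ldhb in the heart) and a form that is widespread or prevails in fetal, proliferating or non-muscle cells (Hk1, Pfkp, Ldha). The adult heart burns mostly fatty acids, and its loaded or failing state is known for a turn toward glucose and toward fetal isoforms.

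The bases just before the RefSeq start of the 3 genes below are shown because Fbp2 and Pfkp had the largest fall and the largest rise of the 10 after TAC in knockout hearts, and Ldhb is the heart form of the lactate step. Capitals mark letters of motifs searched on both strands: the E-box CACGTG, the hypoxia factor core ACGTG (which lies inside the E-box), the GC box GGGCGG, the nuclear receptor core AAGGTCA, the CCAAT box CCAAT, the TATA box TATAAA and the MEF2 site. Sequences are from RefSeq, build GRCm38.p6, all 3 on the minus strand, and are written 5′ to 3′ up to the base before the start.
Pfkp, chr13:6648772-6649021: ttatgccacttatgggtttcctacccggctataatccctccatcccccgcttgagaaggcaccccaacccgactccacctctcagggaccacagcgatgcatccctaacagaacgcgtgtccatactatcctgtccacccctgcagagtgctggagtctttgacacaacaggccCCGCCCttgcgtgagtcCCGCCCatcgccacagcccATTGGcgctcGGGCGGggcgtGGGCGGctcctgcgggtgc
Ldhb, chr6:142507958-142508207: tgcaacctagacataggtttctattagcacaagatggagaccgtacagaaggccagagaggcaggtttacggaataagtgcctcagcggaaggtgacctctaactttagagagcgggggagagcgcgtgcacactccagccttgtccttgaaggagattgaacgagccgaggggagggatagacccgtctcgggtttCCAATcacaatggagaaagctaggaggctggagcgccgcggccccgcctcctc
Fbp2, chr13:62858401-62858650: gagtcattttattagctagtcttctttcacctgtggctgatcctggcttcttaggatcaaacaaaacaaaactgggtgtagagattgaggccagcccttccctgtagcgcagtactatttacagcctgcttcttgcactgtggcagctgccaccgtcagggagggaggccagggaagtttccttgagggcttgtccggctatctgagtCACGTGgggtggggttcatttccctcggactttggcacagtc
The Pfkp window held 4 GC boxes and 1 CCAAT box, the Ldhb window 1 CCAAT box, and the Fbp2 window 1 E-box. Of 32851 RefSeq windows of 300 bases (250 before to 50 after a start), 35.7% held a GC box, 37.4% a CCAAT box and 7.2% an E-box. The ACGTG core, which every E-box holds, was in 19.6%, a TATA box in 13.6%, the nuclear receptor core in 4.7% and a MEF2 site in 3.2%. No nuclear receptor core or MEF2 site was found in any of the 15 windows of the 9 genes that have one. These letter matches are a description of the windows and say nothing of what binds there.

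Values are log2 signals as deposited, from 1 array per heart sample, so a difference of 1 is a factor of 2. The 12 arrays had medians of 5.06 to 5.19, and their background probe sets had medians of 2.96 to 3.17. The number of arrays limits the precision. Adam12 was read on 1 dim probe set shared with another symbol, with 4.46 to 4.80 on the 6 wild type arrays and 4.25 to 4.40 on the 6 knockout arrays, so the genotypes did not overlap. Whether that probe set lies in the deleted part is not given. Differences were tested with limma over all 26989 genes at once, and a gene is called changed where its Benjamini-Hochberg adjusted p is under 0.05. Differences are given ± the SE of the fit and group levels ± the SD over 3 arrays.

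After TAC, knockout hearts had lower levels of 4 genes of the muscle or heart forms and a higher level of the platelet phosphofructokinase. Fbp2 (3.62-fold), Slc2a4 (2.32-fold), Ldhb (1.74-fold) and Pfkm (1.40-fold) fell, and Pfkp rose 2.80-fold. That is 5 of the 10 genes called, 1 higher and 4 lower, where 12.8% of all genes tested were called (7.08% higher and 5.68% lower). All 10 are brighter than the median gene, and bright genes were called more often. Where only the brighter 13494 genes were tested, 2221 were called higher and 1845 lower, and Ldha was called as well (adjusted p = 0.0192). The 10 were also chosen with earlier results of these data known. Hk1, Hk2, Pkm, Ldha and Slc2a1 did not pass the test, though Hk1 did with the replicate number as a block (6 of the 10 called). That fit called 2104 of all genes higher and 1764 lower. In wild type hearts the 5 genes differed in the same directions by less, and none of the 10 passed.

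**Figure D1:**
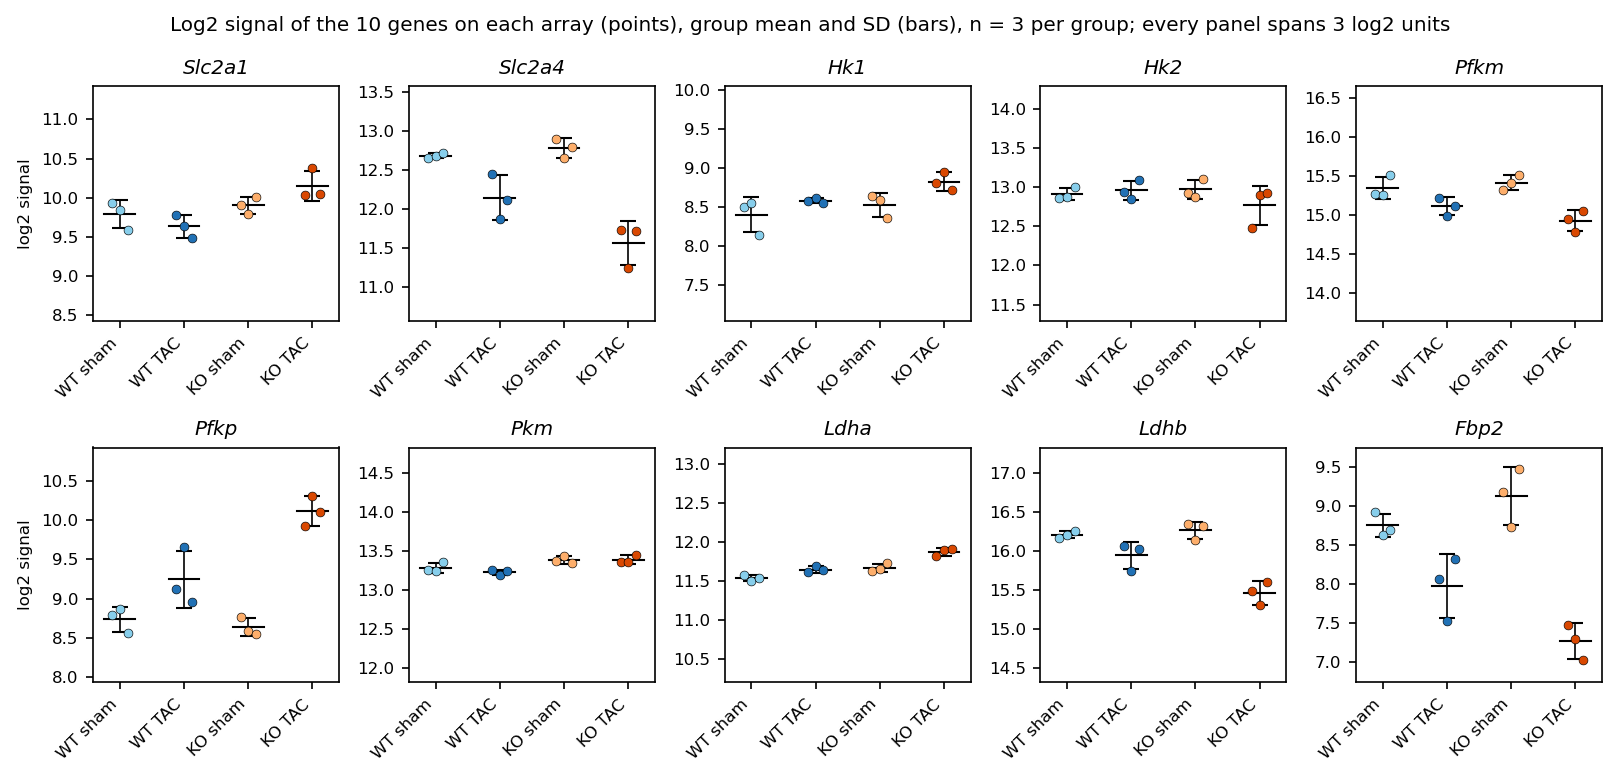
Log2 signal of each of the 10 genes on the 12 arrays, grouped by genotype and operation, with points for arrays and bars for the group mean and SD (n = 3); each panel has its own range, always 3 log2 units tall. The KO TAC arrays of Pfkp lie at 9.93 to 10.32, above all other arrays, and those of Slc2a4, Ldhb and Fbp2 lie below all others.

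Among the transporters, Slc2a4 read 12.65, 12.68 and 12.72 in WT sham hearts and 12.45, 11.87 and 12.12 in WT TAC hearts. In knockout hearts it read 12.90, 12.65 and 12.80 after sham and 11.74, 11.25 and 11.73 after TAC. The TAC arrays lie below the sham arrays in both genotypes, and the KO TAC arrays below all others. The group means were 12.68 ± 0.03, 12.15 ± 0.29, 12.79 ± 0.13 and 11.57 ± 0.28 (SD, n = 3) in the order WT sham, WT TAC, KO sham and KO TAC. The fall with TAC in knockout hearts was -1.21 ± 0.16 (limma adjusted p = 0.000671), against -0.54 ± 0.16 in wild type (adjusted p = 0.181).

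Slc2a1, the basal transporter, read 9.93, 9.85 and 9.59 in WT sham and 9.77, 9.64 and 9.48 in WT TAC hearts. The knockout arrays read 9.91, 9.79 and 10.01 after sham and 10.03, 10.38 and 10.05 after TAC. The KO TAC arrays are the highest of the 12, the lowest of them (10.03) just over the highest KO sham array (10.01), and the wild type groups overlap. The TAC difference was 0.25 ± 0.12 in knockout (adjusted p = 0.252) and -0.16 ± 0.12 in wild type hearts (adjusted p = 0.655), so neither passed. After TAC the knockout mean was above the wild type mean by 0.52 ± 0.12, a ratio of 1.43, with no overlap and an adjusted p of 0.0782 in limma.

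The hexokinases showed small differences. Hk1, which is found in most tissues, read 8.51, 8.56 and 8.15 in WT sham, 8.58, 8.61 and 8.55 in WT TAC, 8.64, 8.60 and 8.36 in KO sham, and 8.81, 8.95 and 8.72 in KO TAC hearts. The KO TAC arrays are the 3 highest, and 1 low array in each sham group widens the spread there. The TAC difference in knockout hearts was 0.30 ± 0.12 (limma adjusted p = 0.13) and in wild type hearts 0.18 ± 0.12 (adjusted p = 0.581). With the replicate number as a block, the knockout difference was 0.30 ± 0.08 and passed (adjusted p = 0.0403). Hk2, the insulin-responsive form of muscle, spanned 12.48 to 13.11 over all 12 arrays, with both ends in knockout hearts and every pair of groups overlapping. Its TAC difference in knockout hearts was -0.20, with a 95% interval of -0.47 to 0.06 (adjusted p = 0.354), so a fall or a small rise is within its error.

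The phosphofructokinases moved apart in knockout hearts. Pfkp, the platelet form, read 8.79, 8.86 and 8.56 in WT sham and 9.12, 9.66 and 8.95 in WT TAC hearts. In knockout hearts it read 8.77, 8.58 and 8.55 after sham and 9.93, 10.32 and 10.11 after TAC. TAC arrays lie above sham arrays in both genotypes, and all KO TAC arrays lie above all WT TAC arrays. The rise in knockout hearts was 1.48 ± 0.17 (limma adjusted p = 0.000446), and the wild type difference was 0.51 ± 0.17 (adjusted p = 0.24). The group means were 8.74 ± 0.16, 9.24 ± 0.37, 8.63 ± 0.12 and 10.12 ± 0.19, and the widest spread, in WT TAC, comes from replicate 2.

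Pfkm, the muscle form, read 15.27, 15.25 and 15.51 in WT sham, 15.22, 14.99 and 15.12 in WT TAC, 15.32, 15.40 and 15.51 in KO sham, and 14.95, 14.79 and 15.05 in KO TAC hearts. TAC arrays lie below sham arrays within each genotype, but the TAC groups of the genotypes overlap. Pfkm fell by 0.49 ± 0.10 in knockout hearts (limma adjusted p = 0.00847), and in wild type hearts the difference was -0.23 ± 0.10 (adjusted p = 0.386).

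Pkm, which encodes the pyruvate kinase of muscle and of most other tissues, was the steadiest of the 10, with a range of 13.20 to 13.46 over the 12 arrays. Its TAC difference in knockout hearts was 0.01 ± 0.07, with a 95% interval of -0.14 to 0.15 (limma adjusted p = 0.972), and in wild type hearts -0.05 ± 0.07 (adjusted p = 0.798). The probe set is read for the gene as a whole, so the splice forms of Pkm, which are what differs between adult muscle and proliferating cells, are not told apart.

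At the lactate step the heart form fell in knockout hearts and the other form just missed the threshold there. Ldhb read 16.17, 16.21 and 16.25 in WT sham, 16.07, 15.75 and 16.03 in WT TAC, 16.34, 16.14 and 16.32 in KO sham, and 15.49, 15.31 and 15.61 in KO TAC hearts. The TAC arrays lie below the sham arrays in both genotypes, and the KO TAC arrays below the WT TAC arrays. Ldhb fell by 0.80 ± 0.10 in knockout hearts (limma adjusted p = 0.000712), against a difference of -0.26 ± 0.10 in wild type hearts (adjusted p = 0.332).

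Ldha, the form that prevails in skeletal muscle and is induced by low oxygen, read 11.58, 11.50 and 11.53 in WT sham, 11.61, 11.69 and 11.64 in WT TAC, 11.62, 11.65 and 11.73 in KO sham, and 11.82, 11.90 and 11.91 in KO TAC hearts. The differences are small, and so is the spread, so TAC and sham arrays do not overlap in either genotype. The TAC difference was 0.21 ± 0.06 in knockout hearts (limma adjusted p = 0.0547) and 0.11 ± 0.06 in wild type hearts (adjusted p = 0.524).

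Fbp2, which turns fructose bisphosphate back to fructose 6-phosphate in muscle and so runs against phosphofructokinase, varied most of the 10 over the 12 arrays. It read 8.92, 8.63 and 8.69 in WT sham and 8.07, 7.53 and 8.32 in WT TAC hearts. In knockout hearts it read 9.18, 8.72 and 9.46 after sham and 7.48, 7.29 and 7.03 after TAC. The KO TAC arrays lie below every other array, the lowest WT TAC array at 7.53 included. The group means were 8.75 ± 0.15, 7.97 ± 0.40, 9.12 ± 0.37 and 7.27 ± 0.23. Fbp2 fell by 1.86 ± 0.22 in knockout hearts (limma adjusted p = 0.00051), and the difference in wild type hearts was -0.78 ± 0.22 (adjusted p = 0.171).

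Counted without a model, the TAC and sham arrays of knockout hearts did not overlap for 8 of the 10 genes, 4 higher and 4 lower, where 32.3% of all genes did not overlap (15.4% higher and 16.9% lower). In wild type hearts limma called 0 of the 10, where it called 0.178% of all genes (0.0667% higher and 0.111% lower), and 5 of the 10 had an unadjusted p under 0.05, against 12.3% of all genes. Arrays did not overlap for 6 of the 10 in wild type hearts, with Pfkp and Ldha higher and Slc2a4, Pfkm, Ldhb and Fbp2 lower, where 16.1% of all genes did not overlap (9.03% higher and 7.07% lower). The median difference of the 10 genes was -0.10 in knockout and -0.11 in wild type hearts, beside -0.03 and 0.02 over all genes, since rises and falls offset each other.

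Averaged over both genotypes, limma called 6 of the 10 changed after TAC, where 13.6% of all genes were called (7.49% higher and 6.12% lower). These were the 5 genes above and Ldha: Fbp2 fell by 1.32 ± 0.15 (adjusted p = 0.000394), Slc2a4 by 0.88 ± 0.11 (0.000495), Ldhb by 0.53 ± 0.07 (0.000856) and Pfkm by 0.36 ± 0.07 (0.0061). Pfkp rose by 1.00 ± 0.12 (adjusted p = 0.000408) and Ldha by 0.16 ± 0.05 (adjusted p = 0.0372). The Ldha call held only in the fits without WT TAC replicate 1, KO sham replicate 3 or KO TAC replicate 1, and over the 12 fits that each left out 1 array its adjusted p ran from 0.0403 to 0.0912. With all 12 arrays it was also lost under 2 of 7 other alternatives, quantile normalization (adjusted p = 0.0517) and centred array medians (0.066).

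**Figure D2:**
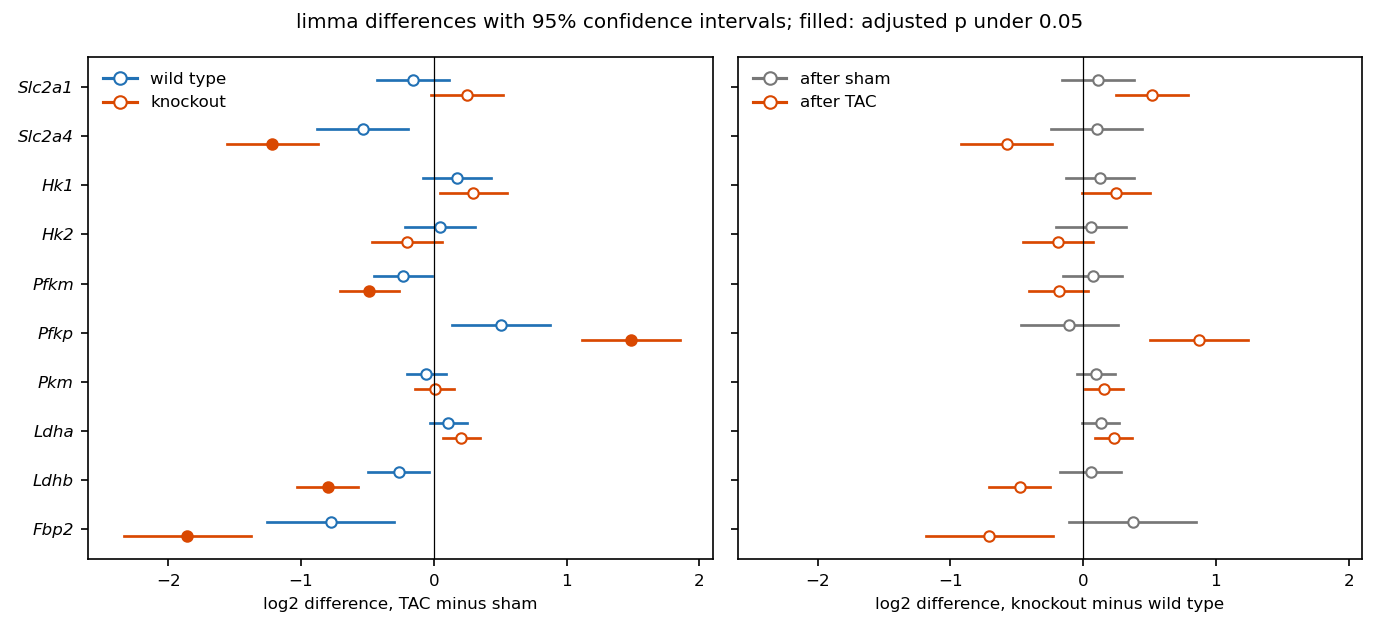
Differences of the 10 genes in log2 units with 95% confidence intervals from limma, TAC minus sham within each genotype on the left and knockout minus wild type after each operation on the right; filled points passed the adjusted p of 0.05. The 5 filled points are the TAC differences of Slc2a4, Pfkm, Pfkp, Ldhb and Fbp2 in knockout hearts, and no knockout minus wild type difference is filled.

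The direct comparison of genotypes asks whether the loss of Adam12 goes with other levels of these genes under the same operation. After sham, limma called 0 of the 10, where 0.0% of all genes were called, and none had an unadjusted p under 0.05, against 5.54% of all genes. Knockout means were the higher ones for 9 of the 10, by 0.37 ± 0.22 at most (Fbp2, adjusted p = 0.922), and the arrays did not overlap for Ldha alone (0.13 ± 0.06, adjusted p = 0.898), where 12.3% of all genes did not overlap (6.43% higher and 5.9% lower). The sham hearts of the genotypes therefore differed by less than the test could call.

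After TAC, limma called 0 of the 10 between genotypes, where 0.0111% of all genes were called. The arrays nevertheless did not overlap for 8 of the 10, against 19.2% of all genes (7.91% higher and 11.3% lower): Slc2a1, Hk1, Pfkp, Pkm and Ldha were higher and Slc2a4, Ldhb and Fbp2 lower in every KO TAC array than in every WT TAC array. The differences with the smallest adjusted p were 0.87 ± 0.17 for Pfkp (0.0592) and -0.48 ± 0.10 for Ldhb (0.0678). Slc2a4 differed by -0.58 ± 0.16 (adjusted p = 0.11), Ldha by 0.23 ± 0.06 (0.117), Fbp2 by -0.71 ± 0.22 (0.16), Pkm by 0.16 ± 0.07 (0.287) and Hk1 by 0.25 ± 0.12 (0.356). An unadjusted p under 0.05 was reached by 7 of the 10, against 14.6% of all genes. These values rest on the same KO TAC arrays as the TAC differences within knockout hearts.

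The calls in this comparison changed when WT TAC replicate 2 was left out. That array was the lowest of the 3 WT TAC arrays for Slc2a4, Hk2, Pfkm, Pkm, Ldhb and Fbp2 and the highest for Hk1, Pfkp and Ldha. Without it, limma called 4 of the 10 between genotypes after TAC: Pfkp at 1.08 ± 0.13 (adjusted p = 0.00307), Ldhb at -0.58 ± 0.10 (0.016), Slc2a4 at -0.71 ± 0.15 (0.0374) and Fbp2 at -0.93 ± 0.20 (0.0402). In that fit 516 of all 26989 genes were called higher and 258 lower, so calls appeared far beyond these genes. Where only the brighter 13494 genes were tested, 4 of the 10 were called as well: Pfkp (0.0316), Ldhb (0.0346), Slc2a1 (0.0417) and Ldha (0.0492). Of those 13494 genes, 468 were called higher and 154 lower.

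The interaction asks whether the TAC response itself differed between genotypes, and limma called 0 of the 10, where 0.0% of all genes were called. An unadjusted p under 0.05 was reached by 5 of the 10, against 11.0% of all genes. The knockout minus wild type difference of the TAC response was 0.98 ± 0.24 for Pfkp (adjusted p = 0.259), -1.08 ± 0.31 for Fbp2 (0.273), -0.54 ± 0.15 for Ldhb (0.268), -0.68 ± 0.22 for Slc2a4 (0.302) and 0.41 ± 0.17 for Slc2a1 (0.426). Without WT TAC replicate 2 the Pfkp interaction was 1.18 ± 0.18 and passed (adjusted p = 0.024). In that fit 117 of all 26989 genes were called higher and 34 lower. The larger response of knockout hearts is therefore not established for any of the 10 with all 12 arrays.

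Within each array the 4 isoenzyme pairs show how the forms moved against each other; a change of such a ratio shows unequal change and not which form is more abundant. In knockout hearts the Pfkp over Pfkm ratio was 3.91 times its sham value after TAC (1.97 ± 0.21 in log2), the Slc2a1 over Slc2a4 ratio 2.76 times (1.46 ± 0.28), the Ldha over Ldhb ratio 2.01 times (1.01 ± 0.11) and the Hk1 over Hk2 ratio 1.41 times (0.50 ± 0.22), where ± is the SE from the spread of the arrays. None of the 4 ratios overlapped between TAC and sham arrays in knockout hearts. In wild type hearts the shifts were 0.74 ± 0.32, 0.38 ± 0.19, 0.37 ± 0.13 and 0.13 ± 0.19 in the same order, with an overlap for the hexokinases. After TAC all 4 ratios were higher in every knockout array than in every wild type array, and after sham all 4 overlapped. No share over all gene pairs was computed. Of single genes, 32.3% did not overlap between TAC and sham in knockout hearts, and 19.2% between genotypes after TAC. The ratios reuse the values of the genes above, so these counts are not separate support.

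**Figure D3:**
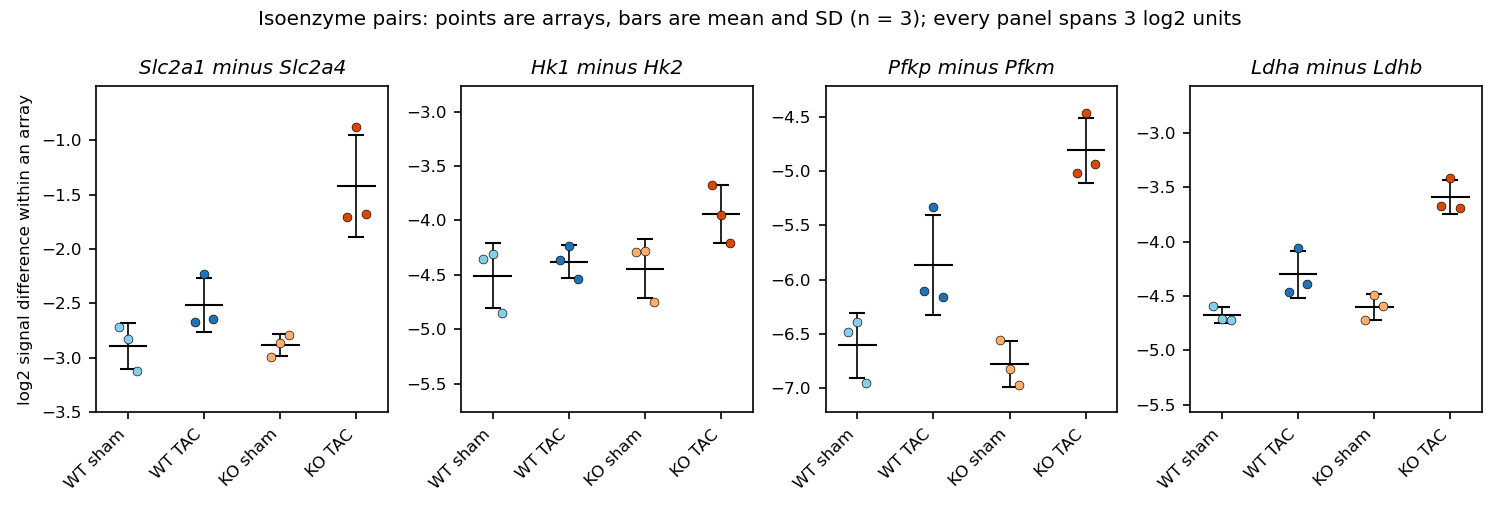
Log2 signal of the first gene minus that of the second on each of the 12 arrays for the 4 isoenzyme pairs (points), with the group mean and SD (bars, n = 3). KO TAC arrays are the highest group in every panel, and the Pfkp minus Pfkm mean goes from -6.78 after sham to -4.81 after TAC in knockout hearts.

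The wider pathway was followed in 8 lists that hold 106 further genes of glucose use, of which 88 were measured. In knockout hearts 7 of the 88 rose and 22 fell after TAC (7.95% and 25.0%, beside 7.08% and 5.68% of all genes). The median difference of the 88 was -0.12, beside -0.03 over all genes. With 1 array left out at a time, 5 to 8 were called higher and 15 to 24 lower, beside 1221 to 2043 and 877 to 1645 of all genes. Where only the brighter genes were tested, 10 of 73 were called higher and 30 lower, beside 2221 and 1845 of 13494.

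Of the 10 other glucose transporters only Slc2a12, an insulin-responsive one, was called: it fell by 0.83 ± 0.14 (limma adjusted p = 0.00252). Of the 13 other glycolysis enzymes measured only Eno3, the enolase of muscle, was called, and it fell by 0.46 ± 0.10 (adjusted p = 0.0102), so most steps between the isoenzymes above gave no call. None of the 5 gluconeogenesis enzymes and none of the 3 enzymes that make or break the regulator fructose 2,6-bisphosphate passed. The smallest adjusted p there were 0.0516 for G6pc3 (-0.35 ± 0.11) and 0.0856 for Tigar (-0.31 ± 0.11).

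The fate of pyruvate and the glycogen store gave more calls. Of 16 genes of pyruvate and lactate handling, 1 rose and 7 fell. Ldhd, a D-lactate dehydrogenase, fell by 0.83 ± 0.11 (limma adjusted p = 0.000891), Pdk2, a kinase that shuts pyruvate dehydrogenase, fell by 0.87 ± 0.14 (0.00184), and the monocarboxylate carrier gene Slc16a7 fell by 0.62 ± 0.12 (0.00571). Pdk3, another kinase of that family, rose by 0.68 ± 0.13 (adjusted p = 0.00486). Of 13 glycogen genes, 1 rose and 5 fell: Phkg1, the catalytic subunit of muscle phosphorylase kinase, by 1.34 ± 0.12 (0.000389), the glycogen synthase gene Gys1 by 0.79 ± 0.11 (0.000753), and Ppp1r3a, a glycogen-targeting phosphatase subunit, by 0.81 ± 0.16 (0.00641) are the 3 with the smallest p. The riser was Pgm2 at 0.97 ± 0.10 (adjusted p = 0.000419), a phosphopentomutase that the array's annotation still lists under the older symbol Pgm1.

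Of 11 genes of the side branches of glucose use, Pgd of the pentose phosphate pathway rose by 0.40 ± 0.07 (limma adjusted p = 0.00458), Gfpt1 of the hexosamine pathway rose by 0.24 ± 0.07 (0.0484), and the fructose kinase gene Khk fell by 0.37 ± 0.07 (0.00486). The Gfpt1 call was lost in 10 of the 12 fits without 1 array, with adjusted p of 0.0271 to 0.145. Of 17 regulators of glucose uptake and of transcription, 3 rose and 7 fell. Ppargc1a, a coactivator of mitochondrial genes, fell by 1.20 ± 0.18 (adjusted p = 0.00129), and Tbc1d4, which holds GLUT4 vesicles back until insulin acts, fell by 0.94 ± 0.14 (0.00142). Hif1a, the hypoxia factor subunit, rose by 1.00 ± 0.15 (adjusted p = 0.00157) and the growth regulator Myc by 0.78 ± 0.14 (0.00398).

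**Figure D4:**
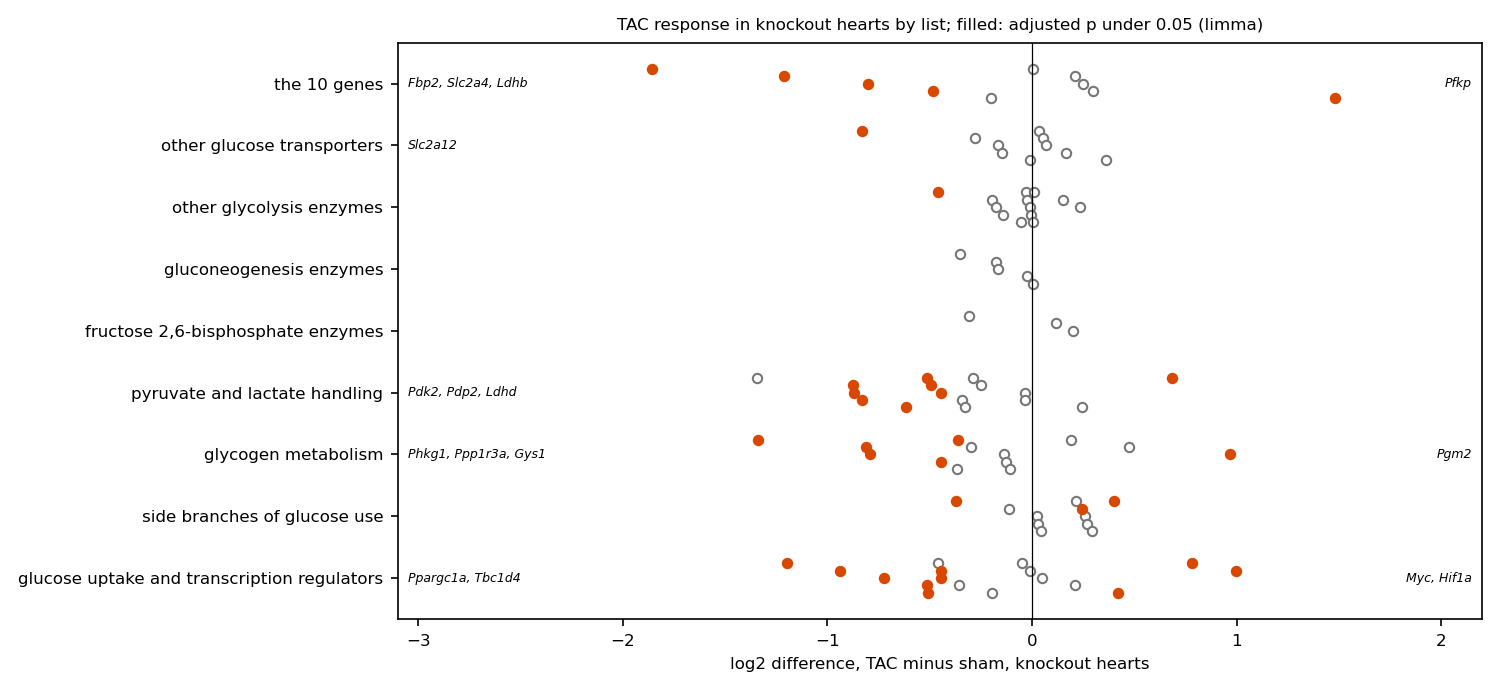
Log2 difference of TAC minus sham in knockout hearts for the 10 genes and for the 88 measured genes of 8 pathway lists (points, spread within a row for sight only); filled points passed the limma adjusted p of 0.05, and names are the called genes past 0.75 in either direction. Called genes are mostly left of 0, with Pfkp, Pgm2, Hif1a and Myc as the 4 named ones to the right.

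In wild type hearts 2 of the 88 were called after TAC, where 0.178% of all genes were called: Phkg1, which fell by 0.88 ± 0.12 (limma adjusted p = 0.0356), and Txnip, which fell by 2.39 ± 0.27 (adjusted p = 0.0356). The count ran from 0, in a fit of the wild type groups alone, to 8 (2 higher and 6 lower), with the replicate number as a block. Over all genes the former fit called 0, and the latter 116 higher and 150 lower. Txnip, which holds glucose uptake down and is itself induced by glucose, read 17.65, 17.10 and 16.85 in WT sham hearts and between 14.58 and 15.66 on all 9 other arrays, KO sham included. The KO sham minus WT sham difference was -2.03 ± 0.27 with no overlap, which did not pass (adjusted p = 0.21). With WT sham replicate 1 or 3, WT TAC replicate 2, KO sham replicate 2 or KO TAC replicate 3 left out, the Txnip call was lost, and the Phkg1 call was lost with these or with WT TAC replicate 1 or KO sham replicate 3, with adjusted p of up to 0.146 for both. Neither genotype comparison nor the interaction called any of the 88 with all 12 arrays and all genes tested. Between genotypes after TAC, 2 of the 88 were called higher and 3 lower without WT TAC replicate 2, beside 516 and 258 of all 26989 genes. Where only the brighter genes were tested (73 of the 88), 4 were called higher and 1 lower, beside 468 and 154 of 13494. The interaction called 1 higher without WT TAC replicate 2, where 117 of all genes were called higher and 34 lower.

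Most markers of fibroblasts and macrophages also rose with TAC in knockout hearts. The mean log2 signal of 7 fibroblast markers was 10.76 to 11.02 in WT sham, 11.25 to 12.88 in WT TAC, 10.71 to 10.92 in KO sham and 13.21 to 13.60 in KO TAC hearts, and 6 of the 7 rose with TAC in knockout hearts. That of 6 macrophage markers was 8.767 to 9.001, 9.16 to 9.46, 8.64 to 8.99 and 9.48 to 10.28 in the same order, with 5 of the 6 called higher. The highest WT TAC fibroblast value, 12.88, was that of replicate 2, the array with the lowest Fbp2, Slc2a4 and Ldhb and the highest Pfkp of its group. The cardiomyocyte mean was the lowest of the group on that array (16.89). The macrophage mean was the lowest there as well (9.16, against 9.46 and 9.30 on replicates 1 and 3). The endothelial mean was highest on replicate 1 (13.01, against 12.72 on replicate 2). In bulk tissue, fewer cells of a type and less RNA per cell cannot be told apart.

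Of 8 cardiomyocyte markers, 3 fell with TAC in knockout hearts (Tnni3 by 0.58, Ryr2 by 0.48 and Pln by 0.30), and their mean signal was 17.04 to 17.07 in KO sham and 16.76 to 16.89 in KO TAC hearts. In wild type hearts it was 16.98 to 17.01 after sham and 16.89 to 16.95 after TAC. Of 6 endothelial markers 1 was called higher after TAC in knockout hearts. Their mean signal was 12.53 to 12.618 in WT sham and 12.625 to 13.01 in WT TAC hearts. In knockout hearts it was 12.54 to 12.60 after sham and 12.75 to 12.90 after TAC, so TAC arrays lay above sham arrays in both genotypes. Neutrophil (4.75 to 5.35), red blood cell (4.79 to 5.06), skeletal muscle (4.62 to 4.89) and brown fat markers (4.39 to 4.77) stayed near the array medians in every group, with 1 of the 5 neutrophil markers called higher after TAC in knockout hearts. Skeletal muscle is another tissue rich in Pfkm and Fbp2, and its part in their values was not tested. The 5 atrial markers ranged from 10.31 to 14.08 with a wide range inside every group and gave no call. The part of these markers in the changes of the 10 genes was not tested.

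For the 3 genes that varied most, the genes whose profile over the 12 arrays was nearest were found by root mean square distance in log2 among 15444 genes. Nearest to Fbp2 were Gstk1 (0.22), Rbfox1 (0.23) and Selenbp1 (0.24). Nearest to Pfkp were Ttc9 (0.099), Rtn4 (0.13) and Ssc5d (0.13), and nearest to Slc2a4 were Slc25a20 (0.080), the mitochondrial carnitine carrier, Tnni3k (0.089), a cardiac kinase, and Ivd (0.098), an enzyme of leucine breakdown. The TAC difference in knockout and wild type hearts was -1.18 and -0.64 for Slc25a20, beside -1.21 and -0.54 for Slc2a4. It was 1.39 and 0.46 for Ttc9, beside 1.48 and 0.51 for Pfkp. As these genes were picked for near profiles on the same 12 arrays, such closeness follows from the search and is no separate result.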

How the data were processed

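Total RNA (250 ng) of each of 12 mouse heart samples was hybridised to Affymetrix Clariom D arrays, per the labels. The deposited values are log2 signals per probe set, made by the authors with Affymetrix Expression Console per the submitters' processing notes; its version, summarization and normalization are not given in the sources used here. Of 65527 probe sets, 6732 are controls; of the rest, 27268 carry 1 gene symbol, 1932 several and 29595 none. The brightest single-symbol probe set of each of 26989 genes was used, and list genes were matched by gene ID first, since the annotation is old (Tigar, Pgm1 and Pgm2 were matched under older symbols). A group-means model over all 12 arrays was fitted with limma 3.58.1 in R 4.3.3 and tested on simulated data; p-values were adjusted by Benjamini-Hochberg over all genes. P-values measure the spread between these samples. The labels only number the replicates and name no pairs, so the reported fit holds no pairing. The deviations of same-numbered KO sham and KO TAC arrays correlated at 0.257, 0.177 and 0.277, all over 0.1. Correlations in these same data cannot settle whether the hearts were paired, so the replicate number as a block was run only as an alternative.

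Of 106 pathway genes, 3 were only on shared probe sets and 15 were not analysed here. The members were named in every comparison; of each list, up to 4 called genes with the smallest p were named, or the 1 with the smallest p where none was called. Members, lists and motifs were chosen with earlier results of these data known. Protein sequences and a Slc2a4 promoter were not used here.

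Alternatives were quantile normalization, median centring, leaving out dim genes, a trended and robust variance, array weights, the mean of all probe sets of a gene, only the groups compared, the replicate number as a block, and leaving out each array.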

Additional observations from a re-analysis of the deposited data

Results flagged for a closer look

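For Slc2a1, the TAC arrays lay on opposite sides of the sham mean in the genotypes: all 3 WT TAC arrays lay below the WT sham mean, by -0.31 to -0.02 in log2, and all 3 KO TAC arrays lay above the KO sham mean, by 0.13 to 0.47. Neither response passed in limma (-0.16, adjusted p = 0.655, with overlapping arrays in wild type hearts, and 0.25, adjusted p = 0.252, in knockout hearts). The difference between the responses was 0.41 ± 0.17 (SE) and did not pass as an interaction in limma (adjusted p = 0.426).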

How the results depend on the processing

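The 5 calls after TAC in knockout hearts (Slc2a4, Pfkm, Pfkp, Ldhb and Fbp2) held in all 12 fits without 1 array and under all 8 other alternatives, with adjusted p of at most 0.0431 in the former. The count between genotypes after TAC was 0 with all arrays, 4 with dim genes left out and 0 to 4 with 1 array left out (4 without WT TAC replicate 2). Over all genes, that comparison gave 468 higher and 154 lower with dim genes left out, and 516 and 258 without WT TAC replicate 2. The interaction count was 0 to 1 with 1 array left out. Over all genes the interaction gave 117 higher and 34 lower without WT TAC replicate 2. In knockout hearts the replicate block added the Hk1 call after TAC (adjusted p = 0.0403) and changed no other call of the 10. Over all genes it called 2104 higher and 1764 lower there. The numbers were not shown to pair the samples of any groups. Over all 18 same-numbered pairs the deviations correlated at -0.115 to 0.336, and 9 were over 0.1. With the replicate block, 3 of the 10 were called between genotypes after TAC (Slc2a4 at adjusted p 0.0412, Pfkp at 0.0217 and Ldhb at 0.024). Of the 88 pathway genes 2 were called higher and 3 lower in that comparison, and of all genes 426 higher and 149 lower. Hk1 was called averaged over genotypes (0.0232), where 2226 of all genes were called higher and 1832 lower.

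Over all comparisons, members and alternative fits, with each left-out array counted as a fit of its own, 1142 of 1180 differences were the same in direction and call, 18 newly passed, 11 no longer passed (all of them Ldha averaged over genotypes) and 9 changed sign. The 9 fall on 6 differences that were not called: TAC minus sham of Hk2 in wild type hearts (-0.0192 without WT TAC replicate 3 to 0.1013 without WT TAC replicate 2), of Pkm in knockout hearts (-0.0265 without KO TAC replicate 3 to 0.0334 without KO sham replicate 2), of Slc2a1 averaged over genotypes (-0.0112 without KO TAC replicate 2 to 0.0826 without WT TAC replicate 3) and of Pkm averaged (0.0029 with quantile normalization). After sham, the knockout minus wild type difference ran from -0.0030 without WT sham replicate 3 to 0.2129 without KO sham replicate 3 for Hk1, and from -0.0075 without KO sham replicate 3 to 0.1071 without KO sham replicate 2 for Hk2. Of 29 pathway calls in knockout hearts, 20 held under every alternative and 9 were lost without at least 1 array. No scaling moved the median of all genes by over 0.1. The cause of these changes was not tested. In each group 3 arrays limit what could be called, and the WT TAC group had the widest spread for Slc2a4, Pfkp, Ldhb and Fbp2.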
